A study of Rattus norvegicus with 6 samples.

Results

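The transcripts of 10 genes best known from heart muscle cells were followed in cultures of rat atrial fibroblasts from which the muscle cells had been depleted. They were the natriuretic peptides Nppa and Nppb, the myosin light chains Myl4 and Myl7, the myosin heavy chains Myh6 and Myh7, the thin filament genes Tnnt2 and Actc1, and the calcium handling genes Ryr2 and Pln. The genes were chosen by name as markers of cardiomyocytes, with earlier results of these data known. All 10 were found among the 40154 genes of the count table. Each of them had at least 159 reads in every library, and all 10 passed the filter on low counts.

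The study sequenced poly(A)-selected RNA from atrial fibroblasts of Sprague-Dawley rats aged 1 to 3 days, transfected with a control small interfering RNA (si-NC, 3 libraries) or with one against Gpd1l (si-GPD1L, 3 libraries) and collected 24 h later. Gpd1l encodes glycerol-3-phosphate dehydrogenase 1-like, and the study asked what its silencing does to fibroblast activation. The minced hearts were digested with trypsin, and myocytes were removed by letting the other cells attach first, so myocytes that also attached would remain. These are primary cells, all 6 libraries carry the same treatment label, "Atrial differentiation", and the labels do not say whether the libraries of a group came from separate cultures, animals or siRNAs. The p-values below therefore measure the spread between these libraries, which may be technical.

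The libraries held 16892255 to 20149732 gene counts. Fibroblast genes dominated, with mean levels of 18986 TPM for Col1a1 and 13887 TPM for Col3a1, the fibrillar collagens (TPM, a level corrected for library size and gene length). The Gpd1l gene had 265, 314 and 321 reads in si-NC and 202, 229 and 303 in si-GPD1L, which gave a log2 change of -0.31 (SE 0.15) that did not pass edgeR's quasi-likelihood test (adjusted p = 0.234, 3 libraries against 3); it was -0.50 without si-GPD1L 3 (adjusted p = 0.0733) and -0.21 without si-GPD1L 2 (adjusted p = 0.579). Library si-NC 1 stood apart by gene length: among 11886 genes averaging 50 or more normalized counts, genes under 1500 bases lay a median of 0.18 above their 6-library mean on the log2 scale, and genes over 5000 bases lay 0.13 below it. In the other 5 libraries these medians ran from -0.065 to 0.037 and from -0.011 to 0.041.

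Heart muscle cells contract when calcium released through the ryanodine receptor binds troponin on the thin filament and lets myosin heads pull on actin. Phospholamban restrains the pump that returns the calcium to its store. Atrial myocytes also secrete natriuretic peptides, hormones that lower blood volume and pressure, and newborn atrial and ventricular myocytes share much of this programme while using different myosin light chains. Fibroblasts of the heart are known to use several cardiac transcription factors, such as GATA4 and TBX20, without building sarcomeres.

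The bases just upstream of the start sites were read from RefSeq (GRCr8) for all 10 genes. They are printed for the natriuretic peptide pair, which lie next to each other in the genome, and for Tnnt2 and Pln, the most abundant sarcomere member and the member that passed the test. Each run is 250 bases long and ends at the base before the annotated start site, all 4 on the plus strand: chr5:163711934-163712183 for Nppa, chr5:163699758-163700007 for Nppb, chr13:49818873-49819122 for the first of the 2 listed Tnnt2 starts and chr20:33172244-33172493 for Pln. Capitals mark the motif letters searched on both strands: TGATAA and AGATAA (letters bound by GATA factors), CATTCC (bound by TEAD factors) and TATAAA (the letters of a TATA box, wherever they stand), or their reverse complement.
Nppa: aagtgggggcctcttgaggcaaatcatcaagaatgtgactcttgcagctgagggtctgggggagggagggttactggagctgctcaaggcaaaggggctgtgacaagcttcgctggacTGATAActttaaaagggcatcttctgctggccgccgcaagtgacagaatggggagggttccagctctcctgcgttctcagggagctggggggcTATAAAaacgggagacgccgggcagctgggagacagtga
Nppb: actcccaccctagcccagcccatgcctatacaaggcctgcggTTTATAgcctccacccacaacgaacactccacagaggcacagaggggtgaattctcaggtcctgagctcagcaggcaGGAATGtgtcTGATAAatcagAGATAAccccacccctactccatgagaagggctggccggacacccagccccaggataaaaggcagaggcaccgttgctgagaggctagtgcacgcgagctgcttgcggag
Tnnt2: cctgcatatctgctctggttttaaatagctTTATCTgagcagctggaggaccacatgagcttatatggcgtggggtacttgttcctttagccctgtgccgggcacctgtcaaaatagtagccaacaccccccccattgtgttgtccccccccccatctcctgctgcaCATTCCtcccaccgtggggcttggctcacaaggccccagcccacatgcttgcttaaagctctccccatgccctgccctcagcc
Pln: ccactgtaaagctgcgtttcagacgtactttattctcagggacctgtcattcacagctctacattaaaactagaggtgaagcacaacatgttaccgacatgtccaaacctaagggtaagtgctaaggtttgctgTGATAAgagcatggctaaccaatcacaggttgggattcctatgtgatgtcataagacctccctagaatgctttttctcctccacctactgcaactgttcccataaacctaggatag
TGATAA stood in the windows of Nppa, Nppb and Pln, starting at -132, -121 and -116 from the start site, and in 7.97% of the 33469 windows of all annotated starts. AGATAA stood in those of Nppb and Tnnt2 (10.3% of all windows), CATTCC in those of Nppb, Myh6 and Tnnt2 (12.1%) and TATAAA in those of Nppa, Nppb and Myl4 (12.9%). The TATAAA of Nppa started at -39 on the plus strand, while those of Nppb (-208) and Myl4 (-91) were on the minus strand. Exact matches to the CArG (CCWWWWWWGG) and MEF2 (YTAWWWWTAR) patterns, found in 1.50% and 2.96% of windows, were in none of the members' windows. In these patterns W is A or T, Y is C or T and R is A or G. Near matches were not searched. These matches describe the letters only, and binding was not measured.

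RNA of all 10 genes was measured in every library of both groups, and they differed from one another far more than the groups did. As a share of all gene counts, together they took 0.208% of si-NC 1 (exact Clopper-Pearson 95% interval 0.206 to 0.210), 0.194% of si-NC 2 (0.191 to 0.196) and 0.200% of si-NC 3 (0.198 to 0.202). In si-GPD1L 1 to 3 the shares were 0.179% (0.177 to 0.182), 0.174% (0.172 to 0.176) and 0.188% (0.186 to 0.190). These intervals cover counting error only. The 3 si-GPD1L shares lay below the 3 si-NC shares. Summed TPM of the 10 genes was 3242.5, 3151 and 3039 in si-NC and 2896, 2844 and 3002 in si-GPD1L, a ratio of the group means of 0.927 (SD 0.040) and of 0.935 without Nppa. In these bulk libraries fewer muscle cells and less RNA per cell cannot be told apart. The part of the gene length pattern of si-NC 1 in these shares and sums was not tested.

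Nppa was the most abundant member at a mean of 1151 TPM over the 6 libraries, and 126 genes of the table had a higher mean. Tnnt2 followed at 1035 TPM, and the ranges of these neighbours in the order overlapped. Actc1 at 371, Myh6 at 161, Nppb at 106 and Myh7 at 77.8 TPM each had a range that overlapped with neither neighbour. Myl4 (45.9), Pln (41.1) and Myl7 (36.5) formed a run in which each range overlapped that of the next. Ryr2 was lowest at 4.28 TPM, below 10801 other genes. Nppa, Tnnt2 and Actc1 made up 38.0%, 34.2% and 12.2% of the summed TPM of the 10 genes.

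**Figure D1:**
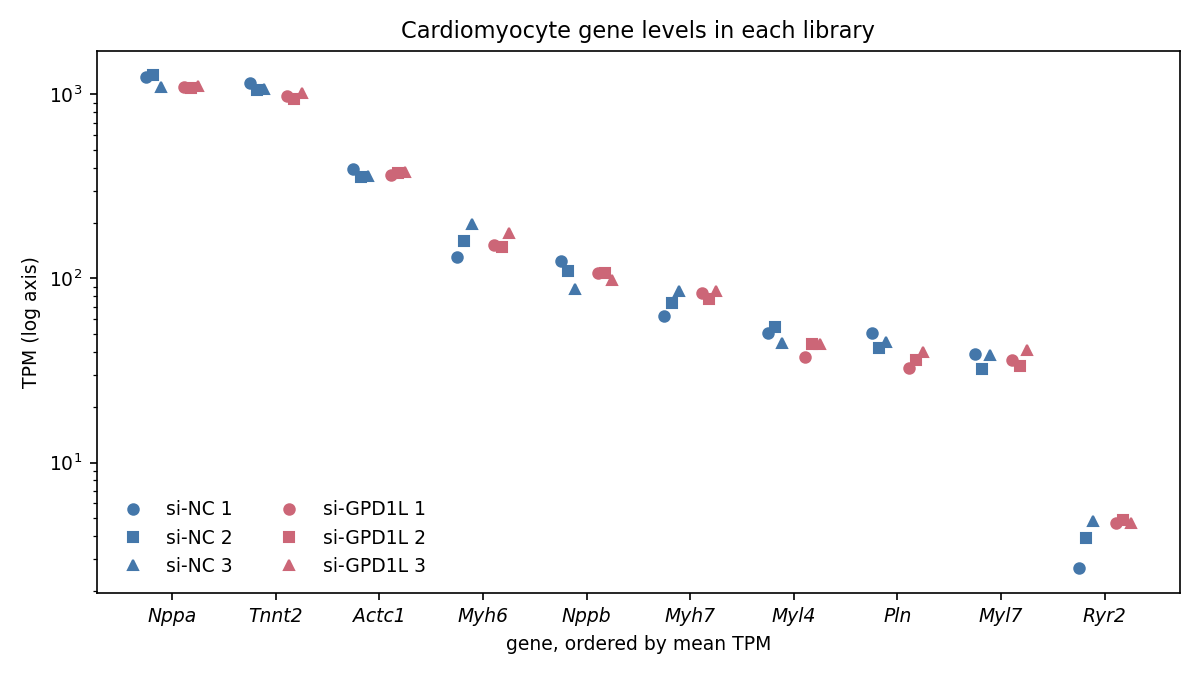
Level of each of the 10 genes in each library, in TPM on a log axis, with genes ordered by their mean; blue symbols are si-NC, red symbols si-GPD1L, and the symbol's shape gives the library number. Nppa and Tnnt2 lie between 940.5 and 1269 TPM and Ryr2 between 2.67 and 4.90 TPM, while the symbols of the 2 groups lie close together within each gene.

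The spread between si-NC libraries exceeded the spread between si-GPD1L libraries for each member. The coefficient of variation of the normalized counts (counts scaled to a common library size) ran from 9.57% for Tnnt2 to 24.1% for Ryr2 in si-NC, and from 1.55% for Actc1 to 10.1% for Myh6 in si-GPD1L. Library si-NC 1 gave the highest normalized count of Nppa, Nppb, Myl4, Myl7, Tnnt2, Actc1 and Pln, whose gene models are 684 to 2254 bases long. It gave the lowest count of Myh6, Myh7 and Ryr2, whose models are 6063 to 16156 bases long. On the log2 scale Ryr2 lay 0.53 below its 6-library mean in si-NC 1, while Pln lay 0.44 above and Nppb 0.37 above. The part of the length pattern in the members' differences was not tested, but all fold changes were also computed with each library's trend on gene length removed, an alternative chosen after seeing the data.

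**Figure D2:**
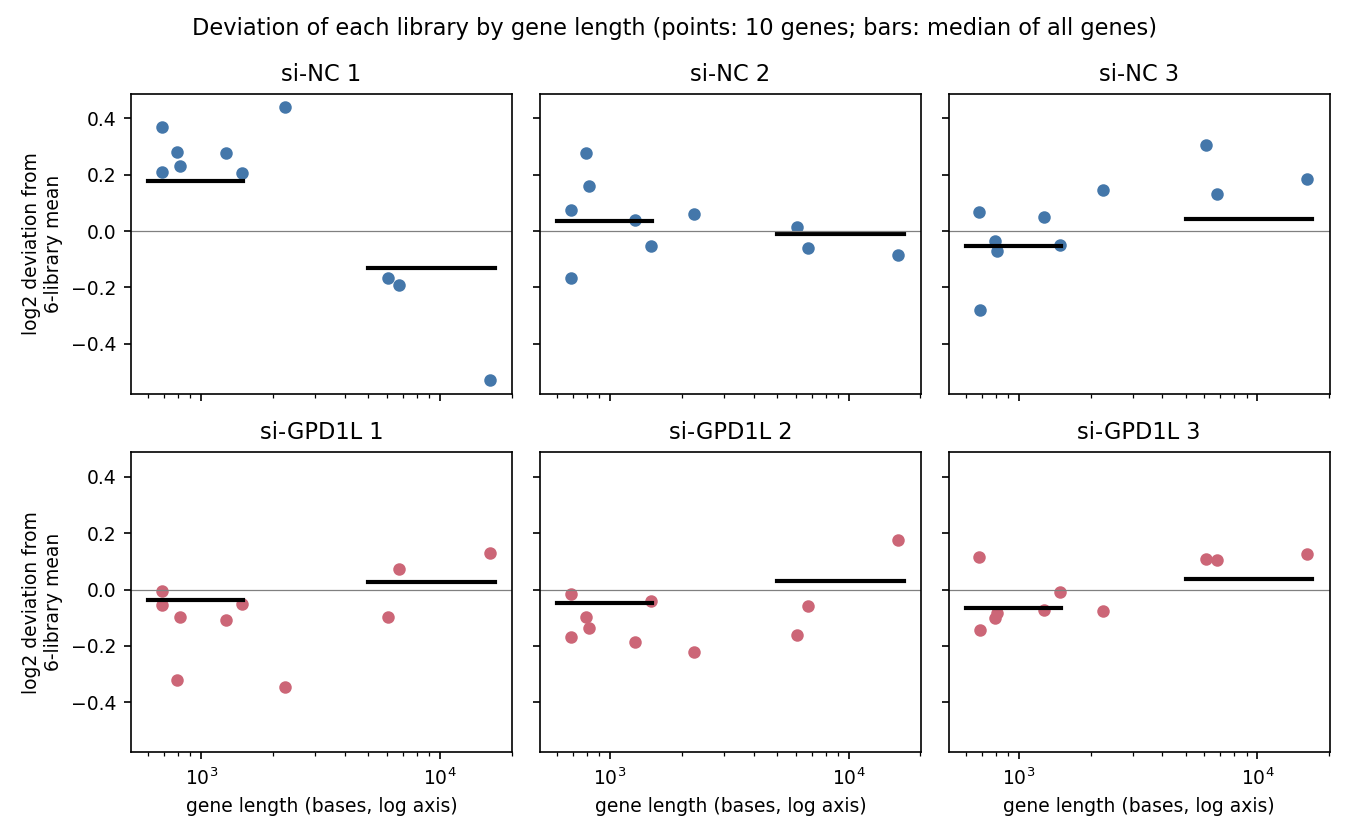
Deviation of each library from the 6-library mean on the log2 scale (y axis) against gene length in bases (x axis, log), 1 panel per library; points are the 10 genes and black bars the medians of all genes under 1500 and over 5000 bases that average 50 or more normalized counts. In si-NC 1 the short members lie above 0 and the 3 long members below it, with bars at 0.18 and -0.13.

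Set against si-NC, 1 of the 10 genes passed the test. Pln, which encodes phospholamban, was lower in si-GPD1L, while none was higher. At an adjusted p under 0.05, 2.33% of the 14852 genes tested were lower, 4.03% were higher and 6.36% differed in either direction. None of the 10 passed both thresholds of the study, a size above 1 on the log2 scale in either direction together with an adjusted p under 0.05, which 1.62% of all genes did. By the unadjusted p alone, 4 members were lower at under 0.05 (Nppa, Myl4, Tnnt2 and Pln) and none higher, against 11.0% and 11.4% of all genes. In the same 4 genes the si-GPD1L libraries all lay below the si-NC libraries in normalized counts, and in no member did they all lie above, against 13.9% and 15.1% of all genes. Fitted values of 8 members were below 0 and of 2 above, with a median log2 fold change of -0.12, a lowest of -0.44 and a highest of 0.26, while the median over all genes was -0.0049. These counts moved with single libraries. Without si-NC 1 the number below 0 was 5, the median -0.077 and the number lower at an unadjusted p under 0.05 was 5. Without si-NC 3 the median was -0.20. The number lower at an unadjusted p under 0.05 was 2 without si-NC 2, without si-GPD1L 1 or without si-GPD1L 2. The number of members with an adjusted p under 0.05 was 4 without si-NC 3 and 0 without any one of the si-GPD1L libraries. With the length trend removed, 6 members were below 0, 2 were lower at an unadjusted p under 0.05 and the median was -0.045.

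**Figure D3:**
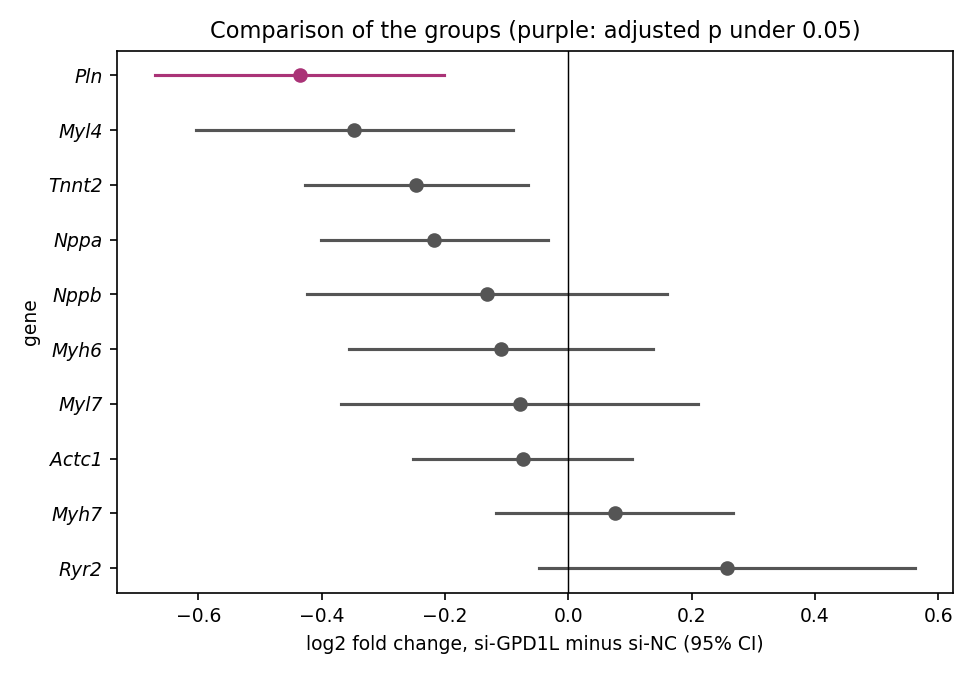
Log2 fold change of each of the 10 genes, si-GPD1L minus si-NC (x axis), with its 95% confidence interval from edgeR's quasi-likelihood fit; genes are ordered from lowest to highest. The purple gene, Pln at -0.44, is the one with an adjusted p under 0.05, and the intervals of 6 genes include 0.

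The 2 hormone genes differed from each other by an order of magnitude. Nppa encodes the precursor of atrial natriuretic peptide, and its gene lies at chr5:164808407-164809716 (rn6, plus strand) with Nppb 10868 bases upstream of it, at chr5:164796176-164797538. Nppa had 8430, 7485 and 6920 reads in si-NC 1 to 3 and 6084, 7101 and 6714 in si-GPD1L 1 to 3. Scaled to library size these were 8343, 7929 and 6761 in si-NC, all above the 6640.5, 6461 and 6709 of si-GPD1L, although si-NC 3 exceeded the highest si-GPD1L library by little. The means were 7678 ± 820 and 6603 ± 128 normalized counts (SD, n = 3 each). The log2 fold change was -0.22 (95% confidence interval -0.40 to -0.033), and it did not pass edgeR's quasi-likelihood test (adjusted p = 0.152). Without si-NC 3 it was -0.30 and passed (adjusted p = 0.0272), and with the length trend removed it was -0.075 (adjusted p = 0.495).

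Nppb encodes B-type natriuretic peptide, which ventricles release under load and newborn atria also make. Its reads numbered 718, 547 and 464 in si-NC and 502, 598 and 499 in si-GPD1L. Normalized counts in si-NC ranged from 453 to 711, and the whole range of si-GPD1L, 499 to 548, lay inside. The log2 fold change was -0.13 (95% confidence interval -0.42 to 0.16, adjusted p = 0.612). The sign turned without si-NC 1 (0.040) and with the length trend removed (0.043). Reads on Nppa outnumbered those on Nppb by 11.7, 13.7 and 14.9 to 1 in si-NC and by 12.1, 11.9 and 13.5 to 1 in si-GPD1L, with overlapping groups.

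The 2 light chain genes are those that atrial myocytes use, Myl4 for the essential and Myl7 for the regulatory chain of myosin. Myl4 (chr10:92628356-92638100) had 338, 315 and 275 reads in si-NC and 202, 283 and 257 in si-GPD1L. Its normalized counts were 334.5, 333.7 and 268.7 against 220.5, 257.5 and 256.8, so the groups did not overlap. The means were 312 ± 37.8 and 245 ± 21.2 (SD, n = 3 each), with a log2 fold change of -0.35 (SE 0.12, adjusted p = 0.105). It passed without si-NC 3 (-0.45, adjusted p = 0.0319) and was -0.20 with the length trend removed.

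Myl7 (chr14:86144770-86147075, minus strand) had 221, 159 and 203 reads in si-NC and 167, 185 and 205 in si-GPD1L. The groups overlapped almost wholly after scaling, at 168 to 219 and 168 to 205 normalized counts. Its log2 fold change was -0.079 (95% confidence interval -0.37 to 0.21, adjusted p = 0.777), and it was 0.0091 without si-NC 1 and 0.086 with the length trend removed. The difference between Myl4 and Myl7 in their response was not tested.

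The 2 heavy chains of cardiac myosin, the fast alpha chain Myh6 and the slow beta chain Myh7, are neighbouring genes with near-identical stretches. In the files their models at chr15:33605653-33629730 and chr15:33605769-33657761 (rn6, minus strand) share 23962 bases, and how reads in shared parts were counted is not stated, so the split between them is uncertain. Myh6 had 6627, 7014 and 9306 reads in si-NC and 6296, 7226 and 7948 in si-GPD1L. After scaling, si-NC spanned 6559 to 9092 and held the whole si-GPD1L range of 6574.5 to 7942. The log2 fold change of Myh6 was -0.11 (95% confidence interval -0.36 to 0.14, adjusted p = 0.619), and 0.027 without si-NC 3.

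Myh7 had 3526, 3606 and 4465 reads in si-NC and 3836, 4206 and 4285 in si-GPD1L. Its normalized counts ran from 3489.8 to 4362.5 and from 3827 to 4282, again one range within the other. With means of 3891 ± 441 and 4098 ± 240 (SD, n = 3 each), the log2 fold change was 0.075 (95% confidence interval -0.12 to 0.27, adjusted p = 0.672). It was 0.0011 without si-NC 1 and 0.16 without si-NC 3. The count ratio of Myh6 to Myh7 was 1.88, 1.95 and 2.08 in si-NC and 1.64, 1.72 and 1.85 in si-GPD1L. The fast chain thus had more reads than the slow chain in all 6 libraries, and the si-GPD1L ratios lay below the si-NC ratios, a difference for which no test was run.

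Tnnt2 encodes cardiac troponin T, which ties the troponin complex to tropomyosin on the thin filament. The gene (chr13:52662974-52680992) is listed with 21 transcripts. It had 12254, 9712 and 10592 reads in si-NC and 8506, 9683 and 9532 in si-GPD1L, the most of any member. Normalized counts were 12128, 10288 and 10349 against 9284, 8810 and 9525, with every si-GPD1L library below every si-NC library. The means were 10922 ± 1045 and 9206 ± 364 (SD, n = 3 each). Its log2 fold change of -0.25 (95% confidence interval -0.43 to -0.065) did not pass edgeR's quasi-likelihood test (adjusted p = 0.103). It was -0.17 with the length trend removed (adjusted p = 0.115), and it passed when genes with few counts were kept in the test (adjusted p = 0.0363).

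Actc1 encodes cardiac alpha-actin, the actin of the thin filament in the heart, whose coding sequence closely resembles those of the smooth muscle and skeletal alpha-actins, so reads could be shared between them. It lies at chr3:105507403-105512939 on the minus strand, with an antisense gene that averaged 37.7 counts. Reads on Actc1 numbered 4891, 3821 and 4151 in si-NC and 3709, 4482 and 4173 in si-GPD1L. In normalized counts, si-NC 1 stood highest at 4841, while the other 5 libraries lay between 4047 and 4170. The log2 fold change was -0.074 (95% confidence interval -0.25 to 0.10, adjusted p = 0.644), and without si-NC 1 it was 0.016. Actc1 had the narrowest spread of all members within si-GPD1L.

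The 2 calcium handling genes differed in sign. Ryr2 encodes the channel that releases calcium from the sarcoplasmic reticulum. It has the longest model of the members, 16156 bases at chr17:65533998-65955606 on the minus strand. It had 360, 458 and 598 reads in si-NC and 515, 639 and 561 in si-GPD1L. Normalized counts were 356, 485 and 584 in si-NC and lay close together at 562, 581 and 561 in si-GPD1L, within the upper end of the si-NC range. The log2 fold change was 0.26 (95% confidence interval -0.048 to 0.56, adjusted p = 0.306). It was 0.43 and passed without si-NC 3 (adjusted p = 0.0437), while the lowest value over all alternatives was 0.085.

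Pln encodes phospholamban, the inhibitor of the calcium pump SERCA2, which is the product of Atp2a2. It had 955, 687 and 789 reads in si-NC and 502, 657 and 661 in si-GPD1L. Scaled to library size these were 945, 728 and 771 against 548, 598 and 660.5, and the groups did not overlap. The means were 815 ± 115 and 602 ± 56.4 (SD, n = 3 each). The log2 fold change was -0.44 (SE 0.11, 95% confidence interval -0.67 to -0.20, adjusted p = 0.0337). Pln lies at chr20:34633157-34642904 on the plus strand, wholly inside Cep85l on the opposite strand, which averaged 159 counts, and whether the counting used strand is not stated. The call held with the length trend removed (-0.42, adjusted p = 0.0200). It was lost without si-GPD1L 1 (adjusted p = 0.171), without si-GPD1L 2 (0.152) and without si-GPD1L 3 (0.0507), and in counts of the transcript table summed by gene (-0.44, adjusted p = 0.0688). Each of the 21 Tnnt2 transcripts holds 82.3% to 99.9% of that gene's reads, so such sums count reads repeatedly. Pln has 1 transcript with 100% of its gene's reads, so its own counts were the same in both. Over the alternatives the value stayed between -0.51 and -0.32.

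The members did not follow 1 profile across the 6 libraries. Likeness was measured by the proportionality coefficient, which is 1 when the log levels of a gene and of a reference rise and fall by the same amounts, and is given as a description over libraries that share groups and depth. Against the mean of the other 9 members it was 0.68 for Tnnt2, 0.60 for Actc1 and 0.55 for Nppa. It was 0.44 for Myl7, 0.37 for Pln, 0.35 for Myl4, 0.077 for Nppb and 0.016 for Myh6, and negative for Myh7 (-0.48) and Ryr2 (-0.59). The 2 negative values belong to the longest models. Among 11876 other genes, those closest to the mean of the 10 members were Stk25 (0.991), Dnajc10 (0.983), Elk3 (0.981), Aldh6a1 (0.980) and ENSRNOG00000048795.3 (0.970). These 5 were picked as the highest of 11876 over 6 libraries, so values near 1 come with the picking. They cannot be compared with the values of the members, which were not picked by likeness. None of these 5 genes is in any of the lists of heart muscle genes below.

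Other genes known from heart muscle cells were described by the same counts. Fibroblasts of the heart also use some of them, such as Gata4 and Tbx20. In these bulk libraries a difference in such a gene cannot be assigned to muscle cells. Of 20 other sarcomere genes, 18 were tested and none passed at an adjusted p under 0.05 by edgeR's quasi-likelihood test, while 2 were higher and 4 lower at an unadjusted p under 0.05, the median log2 fold change being -0.12. At the adjusted threshold 1 was lower by the DESeq2 Wald test, by the exact test, with the replicate block or without si-NC 2. With no filter 2 were lower and 1 higher, and without si-NC 3 there was 1 higher. Their most abundant genes were the stretch-responsive Ankrd1 (382 TPM), cardiac troponin C Tnnc1 (239) and the light chain Myl3 (143). Tcap and Lmod2, both sarcomere genes, are listed at 0 in all 6 libraries.

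The ventricular regulatory light chain Myl2 exceeded its atrial counterpart Myl7 in every library. Myl2 averaged 84.3 TPM against 36.5 for Myl7, a ratio of 2.63, 2.46 and 2.65 in si-NC and 2.02, 2.07 and 2.01 in si-GPD1L. The atrial marker sarcolipin, Sln, averaged 33.6 TPM. Other genes of the atrial list were spread widely, with Gja5 at 400 to 786 reads, Kcnj3 at 2 to 17, Bmp10 at 3 to 9 and Kcna5 at 0 to 1. In the ventricular list Myl3 had 875 to 1194 reads, Hey2 154 to 215 and Irx4 25 to 44. The minced tissue is described as hearts and the cells as atrial, and since markers of both chambers were read, with some of each list low, the transcripts are called heart muscle cell genes here. Of 3 tested genes in the list of other atrial genes, 1 passed (Gja5, described below), and of 4 in the ventricular list none did, with 2 lower at an unadjusted p under 0.05. Myl2 had a log2 fold change of -0.43 (SE 0.12, adjusted p = 0.0613) and Sln one of -0.50 (SE 0.18, adjusted p = 0.117).

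Of 9 other calcium handling genes none passed, with 3 lower at an unadjusted p under 0.05 and a median of -0.085. Atp2a2, the pump that phospholamban inhibits, was the most abundant at 216 TPM and had a log2 fold change of -0.085 (SE 0.075, adjusted p = 0.548). The structural gene Jph2 averaged 83.2 TPM and the calcium buffer Casq2 49.8 TPM. Of 10 ion channel and connexin genes 9 were tested. Kcnd3, a potassium channel subunit, was lower (log2 fold change -0.77, SE 0.093, adjusted p = 0.000242), and Gja5, the connexin of atrial myocytes that arterial endothelium also makes, was higher (0.48, SE 0.11, adjusted p = 0.0251). The call on Gja5 was lost without any one of the si-GPD1L libraries (adjusted p = 0.0917, 0.152 and 0.0633) and in summed transcript counts (0.0592).

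Of 8 genes of muscle energy metabolism 6 were tested, and all 6 had a value below 0, with a median of -0.50. Of all 14852 genes tested, 7558 had a value below 0. Fabp3, the fatty acid binding protein of heart, passed: its reads were 764, 524 and 610 in si-NC and 329, 466 and 364 in si-GPD1L, which gave a log2 change of -0.73 (SE 0.12, adjusted p = 0.0031). With the length trend removed the value of Fabp3 was -0.56 (adjusted p = 0.0036 by edgeR's quasi-likelihood test). No other gene of the list passed. The summed level of the list spanned 188 to 215 TPM in si-NC and 136 to 143 TPM in si-GPD1L. Fabp3 alone had means of 121 TPM in si-NC and 77.8 TPM in si-GPD1L, so the sums do not describe the list as a whole. Of 12 tested cardiac transcription factors 1 passed, Tbx20, which was higher (0.37, SE 0.074, adjusted p = 0.0108) at a mean of 177 TPM. It lost the call without si-NC 2 (adjusted p = 0.0562), si-GPD1L 2 (0.101) or si-GPD1L 3 (0.0571). Fibroblasts of the heart also use Tbx20, and in which cells it differed was not tested. Of 7 tested genes of the natriuretic peptide pathway none passed and 1 was higher at an unadjusted p under 0.05. The most abundant were the protease Furin (116 TPM) and the receptors Npr2 (56.7) and Npr1 (21.3), the last being the receptor of the Nppa and Nppb products.

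**Figure D4:**
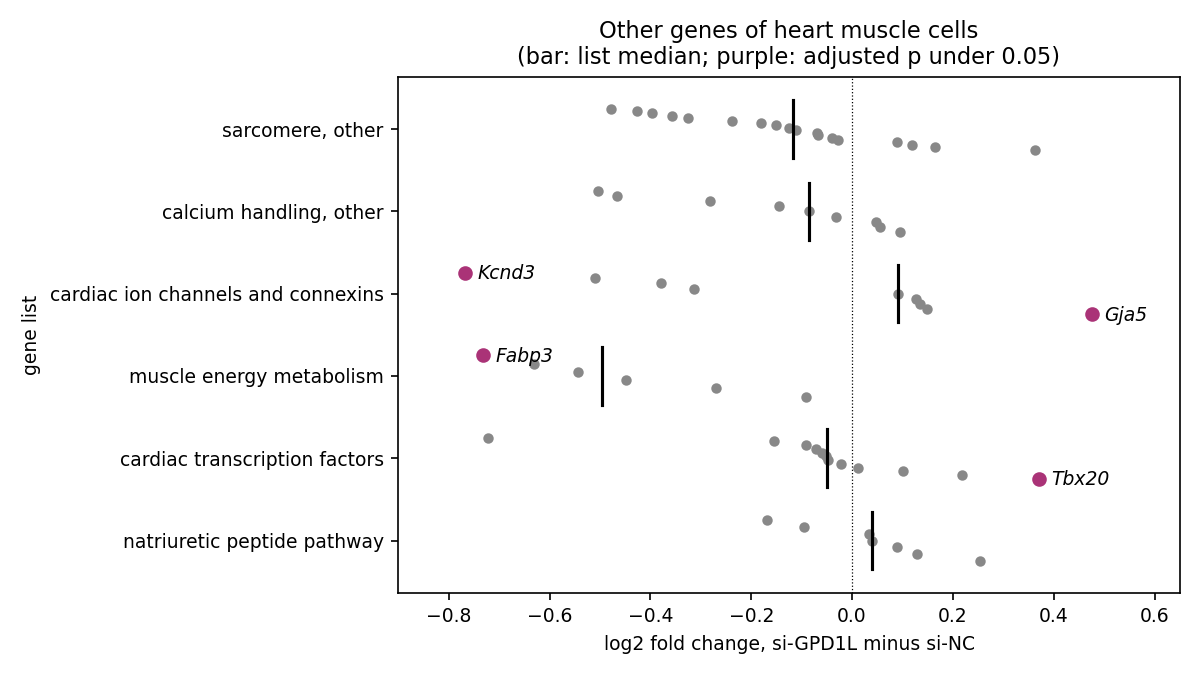
Log2 fold change, si-GPD1L minus si-NC (x axis), of the tested genes in 6 lists of other genes known from heart muscle cells (y axis). Fibroblasts of the heart also use some of these genes, such as Gata4 and Tbx20. Each point is a gene, the black bar is the list's median, and purple points passed at an adjusted p under 0.05. Kcnd3, Fabp3, Gja5 and Tbx20 are the ones that passed, and the metabolism list has its median at -0.50.

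Markers of other cells that the cultures could hold were set beside these results. Of 14 skeletal muscle genes, 7 were at 3 reads or fewer in every library, Myod1 and Pax7 among them. Another 3 passed the filter on low counts, and none of these passed at an adjusted p under 0.05. They were Tnnt3 (11.1 TPM), Acta1 (8.85) and Myh1 (1.42, at 28 to 89 reads). Of 11 smooth muscle and myofibroblast genes, Acta2 at 4458 and Tagln at 3823 TPM exceeded every member, while the next, Cnn1, was at 143 TPM. In this list Des was lower (-0.35, adjusted p = 0.0282) and Cspg4 higher (0.80, adjusted p = 0.0013). Desmin is also made by heart muscle cells. The Des call was lost without si-NC 2 (adjusted p = 0.0750), si-GPD1L 1 (0.0984) or si-GPD1L 2 (0.167), and in summed transcript counts (0.0590). Of 12 fibroblast genes Dcn and Lum were lower (-0.66 and -0.77), the former not so without si-GPD1L 1 or 2 (adjusted p = 0.0564 and 0.0842), and their list summed to 35852 to 46708 TPM in si-NC and 44401 to 47675 TPM in si-GPD1L.

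Some endothelial genes differed between the groups. Of 11 tested, 5 were higher in si-GPD1L (Plvap by 1.44, Cdh5 by 1.07, Erg, Pecam1 and Tie1) and none lower. The most abundant of the list, Flt1 (15.6 TPM), did not pass edgeR's quasi-likelihood test (log2 fold change 0.12, adjusted p = 0.518). The summed level of the list was 42.2 to 55.1 TPM in si-NC and 70.9 to 76.2 TPM in si-GPD1L. The number passing was 3 without si-NC 2, si-GPD1L 1 or si-GPD1L 3 and 2 without si-GPD1L 2. In summed transcript counts Pecam1 and Tie1 did not pass (adjusted p = 0.0697 and 0.0647). The defining markers Pecam1 and Cdh5 were present in all libraries, at 35 to 99 and 66 to 205 reads. Their part in the difference of Pln and the other members was not tested. Macrophage (12 genes), epicardial (7) and Schwann cell lists (5) had no tested gene that passed, with 0, 1 and 1 genes lower at an unadjusted p under 0.05. The most abundant macrophage gene was Lyz2 (171 TPM), and the most abundant epicardial gene was Aldh1a2 (99.8 TPM).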

How the data were processed

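Poly(A)-selected RNA of 6 libraries, 3 si-NC and 3 si-GPD1L, was analysed from the deposited tables. The submitters' processing notes name bcl2fastq, HISAT2 2.1.0, HTSeq 0.12.4 and the rn6 build. The authors deposited whole-number counts per gene and per transcript, and TPM per gene, which corrects for library size and length.

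Gene counts were tested with edgeR 4.0.16 (R 4.3.3; filterByExpr, TMM, quasi-likelihood F test, Benjamini-Hochberg adjustment over the 14852 of 40154 genes tested), after the thresholds of the study's methods, and the script was tested on simulated data. Normalized counts are counts scaled to a common effective library size. TPM was used for levels between genes, with no test. No 2 libraries of a group were duplicates (chi-square per degree of freedom 3.89 to 27.4). The members and gene lists were chosen with earlier results of these data known. Named genes were taken from the members, Gpd1l, the 3 most abundant and at most 3 best passing genes of each list, and the 5 genes most like the members by proportionality of log2 CPM (prior count 2); Irx4, Bmp10, Kcna5, Tcap, Lmod2, Pecam1, Tie1, Myod1, Pax7 and Cep85l were named after their values were seen. Alternatives were DESeq2 1.42.0, other normalizations and filters, the exact test of edgeR, each library left out, a replicate block, summed transcript counts and, added after seeing the data, a removed length trend. Summed transcript counts take in a read once for each transcript on which it was counted. Upstream sequences came from RefSeq on GRCr8, whose coordinates are not those of rn6.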

Additional observations from a re-analysis of the deposited data

How the results depend on the processing

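Of 150 alternative values for the 10 members, 136 kept their direction and side of the threshold, 4 lost a call, 4 gained one and 6 changed sign. Only Pln had a call to lose, and 4 of its 15 alternatives lost it. For the other members, keeping the side of the threshold means that they again did not pass. The number of members with an adjusted p under 0.05, which was 1, was 2 with no filter on low counts and ranged from 0 to 4 when 1 library was left out. The sign turned for Nppb without si-NC 1 (0.040) and with the length trend removed (0.043), for Myl7 likewise (0.0091 and 0.086), for Myh6 without si-NC 3 (0.027) and for Actc1 without si-NC 1 (0.016). With 1 library left out these ranged from -0.28 to 0.040, from -0.17 to 0.0091, from -0.21 to 0.027 and from -0.12 to 0.016, and the cause was not tested. The number of genes past both thresholds, 240, stayed within 1.5 times of that under the 14 alternatives run for it (164 to 359), which did not include the transcript counts. The number with an adjusted p under 0.05, 945, was 1528 by the exact test, 1929 with no filter and 623 from transcript counts, and it was 1531, 550 and 1451 without si-NC 1, 2 and 3 and 366, 361 and 591 without si-GPD1L 1, 2 and 3. The ratio of summed TPM, 0.927, ranged from 0.912 to 0.942 with 1 library left out and was 0.900 from counts scaled to library size alone.

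Same-numbered libraries did not deviate together (correlations of 0.041, -0.0046 and 0.047 over 11886 genes). The labels do not give the meaning of the numbers, and correlations over so few libraries cannot settle whether they pair the samples. With the replicate block 223 genes passed both thresholds and 1 member had an adjusted p under 0.05, Pln (-0.43, adjusted p = 0.0412). Myl7, Ryr2 and Nppb had the widest confidence intervals of the members. With Myl4 they had the fewest reads, and Ryr2 and Nppb also had the highest coefficients of variation within si-NC (24.1% and 22.1%). What set the widths was not tested.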

Other observations

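The profile of the 10 members, taken as the mean of their log2 CPM, was 6.53, 6.44 and 6.46 in si-NC 1 to 3 and 6.33, 6.33 and 6.41 in si-GPD1L 1 to 3. The highest value belonged to si-NC 1, and the si-GPD1L values lay below the si-NC values.

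The count ratio of Myh6 to Nppa, a long against a short heart muscle gene, was 0.786, 0.937 and 1.34 in si-NC and 1.03, 1.02 and 1.18 in si-GPD1L. In the si-NC libraries alone it thus spanned a wider range than in si-GPD1L, and the order of the genes by reads differed between libraries of 1 group: Nppa had more reads than Myh6 in si-NC 1 and 2 and fewer in si-NC 3. Across all genes averaging 50 or more normalized counts, the median deviation of genes over 5000 bases minus that of genes under 1500 bases was -0.31, -0.048 and 0.094 in si-NC 1 to 3 and 0.064, 0.081 and 0.10 in si-GPD1L 1 to 3. The median log2 fold change between the groups was -0.11 for the 1947 shorter genes, which include 6 members, and 0.054 for the 3101 longer genes, which include 3. The part of this pattern in any single gene's difference was not tested.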
